A study of Mus musculus with 8 samples.

Results

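The genes described here encode the chromatin and elongation proteins that MLL fusion oncoproteins contain or work with. They are Kmt2a, Men1, Psip1, Dot1l, Mllt1, Mllt3, Mllt10, Aff1 and Aff4, 9 of the 12823 rows of the count table, chosen by name. All 9 were present and all 9 passed the filter on low counts, with 347 to 3344 read counts per library. RNA was sequenced from GFP+ mouse leukemia cells in 2 groups of 4 libraries. New AML cells came from bone marrow progenitors transduced with a retrovirus (pMSCV-MLL-AF9-pgk-EGFP) and transplanted into sublethally irradiated mice. Aggressive AML cells are described by the labels as the remaining GFP+ cells after 5 serial transplantations, and the Y-linked genes given below bear on that origin. By the study's methods these passages were in non-irradiated mice. Both groups carry the same MLL-AF9 and GFP construct, and there was no group of normal cells or of leukemia with another driver. For RNA, both were transplanted into C57BL/6 mice, young adult males by the study's methods, and the same number of sorted GFP+ bone marrow cells was used for every sample. The labels call the 4 libraries of each group biological replicates and name 1 derivation of the aggressive cells, so the p-values here measure the spread between libraries and not between separately derived leukemias.

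KMT2A, also called MLL, is a histone methyltransferase that places methyl groups on lysine 4 of histone H3 and keeps developmental genes active in hematopoietic cells. In MLL leukemia its amino-terminal part is fused to a partner protein, most often a component of the transcription elongation machinery. Menin (Men1) and LEDGF (Psip1) bind the part of KMT2A that is kept in the fusions and hold it on chromatin. The partner part brings the super elongation complex, built on the scaffolds AFF1 and AFF4, or the DOT1L complex, which methylates lysine 79 of histone H3. AF9 (Mllt3) and ENL (Mllt1) are paralogs that bind both of these complexes.

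The promoter sequences of 3 members are shown because these genes carry the largest differences between the groups: Men1 and the paralogs Mllt1 and Mllt3. RefSeq promoter windows (build GRCm38.p6, the assembly also called mm10) matched 8 of the 9 members. For each, the 250 bases before the annotated start nearest to the gene's 5′ end were searched on both strands for the CCAAT box, spelled CCAAT, the GC box, spelled GGGCGG, the TATA box, spelled TATAAA, an ETS-type motif, spelled CCGGAAGT, and a YY1-type motif, spelled AANATGGCG, counting overlapping GC boxes separately. Lower case is sequence outside these letters and capitals mark the matches, on either strand. The Men1 window is chr19:6334729-6334978 on the plus strand. The Mllt3 window is chr4:88033408-88033657 on the minus strand. For Mllt1 the window was chr17:56935389-56935638 on the minus strand, and only its 129 bases that lie before every annotated start, chr17:56935510-56935638, are printed.
Men1: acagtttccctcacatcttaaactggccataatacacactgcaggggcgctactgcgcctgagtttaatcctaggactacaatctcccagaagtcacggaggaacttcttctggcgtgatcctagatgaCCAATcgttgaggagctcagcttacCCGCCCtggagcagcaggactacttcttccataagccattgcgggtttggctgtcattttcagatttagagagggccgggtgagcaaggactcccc
Mllt1: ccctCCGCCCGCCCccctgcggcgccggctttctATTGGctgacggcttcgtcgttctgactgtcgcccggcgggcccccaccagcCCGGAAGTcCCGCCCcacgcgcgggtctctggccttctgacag
Mllt3: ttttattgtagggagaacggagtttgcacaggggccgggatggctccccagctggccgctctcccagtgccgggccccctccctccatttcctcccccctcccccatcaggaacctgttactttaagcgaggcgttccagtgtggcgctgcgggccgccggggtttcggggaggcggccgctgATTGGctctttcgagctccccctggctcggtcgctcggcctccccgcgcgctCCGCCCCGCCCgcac
Each of the 3 windows held 1 CCAAT match, found in 37.4% of the 9910 windows of genes in the count table. GC boxes, present in 57.2% of windows, numbered 1 at Men1, 2 at Mllt3 and 7 in the full Mllt1 window, of which 3 are in the printed bases. The Mllt1 window also held 1 ETS-type match (6.2% of windows). No TATAAA (6.7% of windows) and no YY1-type letters (2.2%) were found in any of the 3. The Men1 window had a GC content of 52.0% with 8 CpG dinucleotides, against 77.6% and 37 at Mllt1 and 69.2% and 23 at Mllt3. The median window had 59.2% and 15. These letters are a description of the windows, and no binding was measured.

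Men1 RNA was lower in aggressive AML than in new AML, and Mllt1 RNA was also lower. The other 7 members did not pass the test. Levels are given in CPM, a gene's counts scaled to the same library total in every sample with TMM factors, and the test is the edgeR quasi-likelihood test with Benjamini-Hochberg adjustment over 12494 genes and a threshold of 0.05. In bulk RNA, fewer cells that express a gene and less RNA per cell cannot be told apart.

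**Figure D1:**
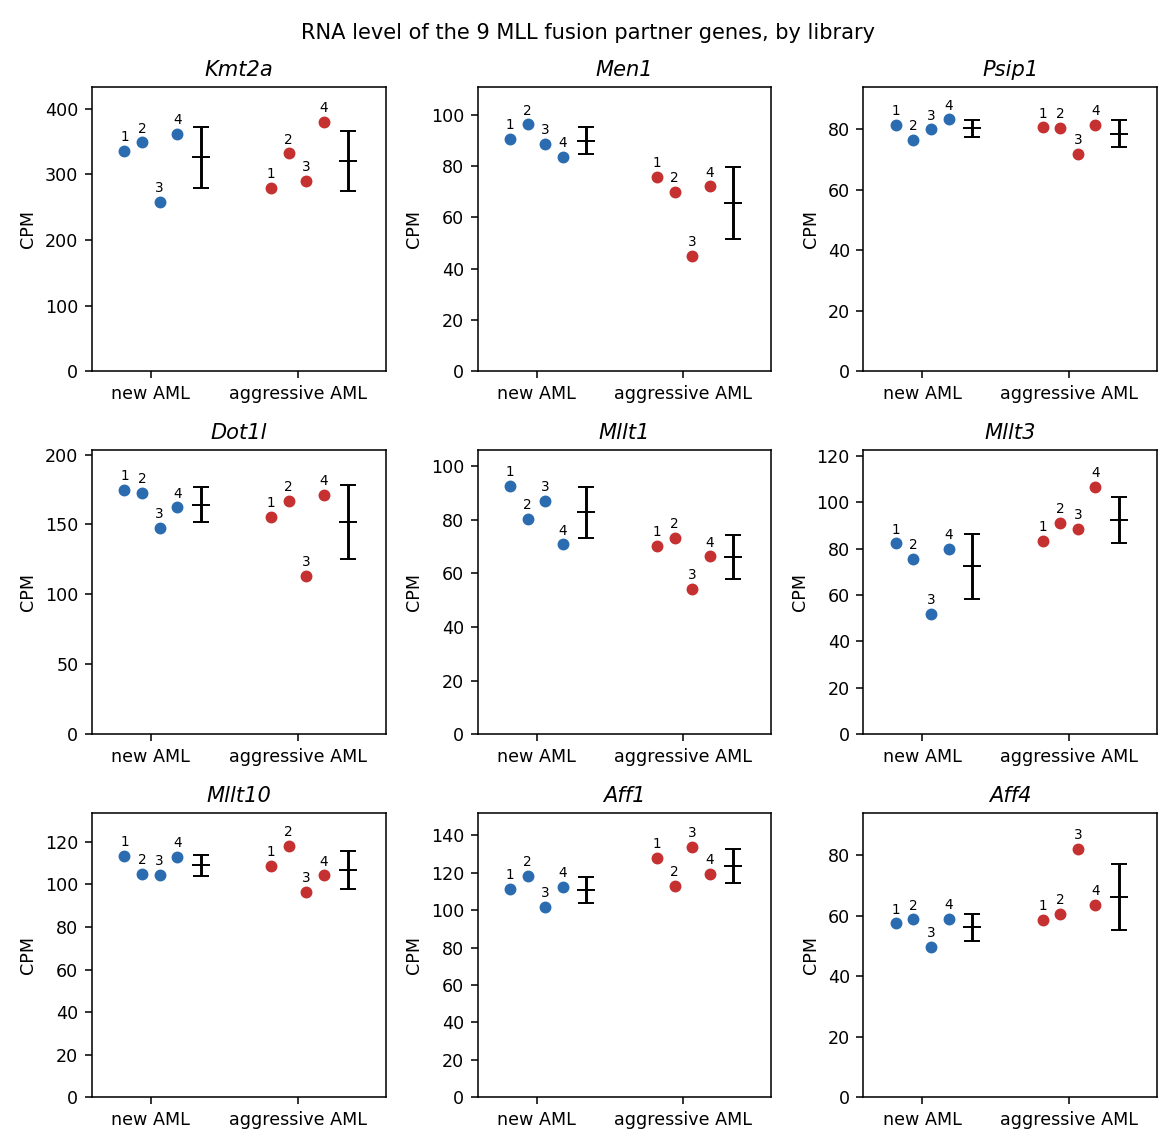
RNA level of each member in CPM (vertical axes, from 0) in the 4 new AML (blue) and 4 aggressive AML (red) libraries; numbers are replicate numbers, and the bar beside each group is its mean ± SD. The groups do not overlap for Men1 and Mllt3, and aggressive replicate 3 is the lowest of its group for Men1, Psip1, Dot1l, Mllt1 and Mllt10.

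Kmt2a (chr9:44803355-44881352) had 336, 349, 258 and 362 CPM in new AML replicates 1 to 4, and 280, 332, 290 and 381 CPM in the aggressive libraries. The groups overlapped in part, with new replicate 3 below every aggressive library and aggressive replicate 4 above every new one. The log2 fold change, aggressive over new, was -0.02 ± 0.11 (SE, n = 4 per group), with a 95% interval of -0.26 to 0.21 and an adjusted p of 0.905 by edgeR. The sign of so small a value was not stable and turned positive in 6 of 17 alternative settings. The count table has 1 row per gene, so reads of the MLL-AF9 transgene and of the cells' own Kmt2a and Mllt3 cannot be told apart, and the species of the fusion's coding sequence is not given in the sources used here.

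Men1 (chr19:6334979-6340894) encodes menin, the adaptor between KMT2A and LEDGF. It had 90.7, 96.3, 88.8 and 83.5 CPM in new AML and 75.8, 69.97, 45.0 and 72.0 CPM in aggressive AML. Every aggressive library was below every new library, and aggressive replicate 3 was well below the other aggressive ones. The mean fell by 26.8%, from 89.8 ± 5.29 CPM to 65.7 ± 14.0 CPM (SD over 4 libraries each). The log2 fold change of -0.45 ± 0.13 (SE) had an edgeR adjusted p of 0.0240. Without aggressive replicate 3 the log2 fold change was -0.31 (adjusted p = 0.0176). The call was lost without new replicate 1 (-0.45, adjusted p = 0.0553) and without new replicate 2 (-0.42, adjusted p = 0.0757).

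Psip1 (chr4:83455680-83486463) encodes LEDGF, which reads methylated lysine 36 of histone H3 through its PWWP domain. It had 81.5, 76.6, 79.96 and 83.3 CPM in new AML and 80.6, 80.3, 71.9 and 81.5 CPM in aggressive AML. The other 7 libraries lay close together, above aggressive replicate 3. The log2 fold change was -0.03, with a 95% interval of -0.20 to 0.13 and an edgeR adjusted p of 0.815. Psip1 varied least of the members in new AML, with a coefficient of variation of 3.54%. The gene overlaps Snapc3, also in the table, and the sources used here do not say whether counting used strand.

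Dot1l (chr10:80755101-80795461) encodes the methyltransferase for lysine 79 of histone H3. It had 175, 172, 148 and 162 CPM in new AML and 155, 167, 114 and 171 CPM in aggressive AML. The groups overlapped, with aggressive replicate 3 the lowest of the 8. The log2 fold change was -0.11 (95% interval -0.35 to 0.12, edgeR adjusted p = 0.512), and without aggressive replicate 3 it was 0.00 (adjusted p = 0.978). Mllt10 (chr2:18055160-18212390) encodes AF10, a cofactor of DOT1L. Its 8 values lay between 96.5 and 118 CPM, and the log2 fold change was -0.03 (95% interval -0.20 to 0.15, edgeR adjusted p = 0.847). Mllt10 overlaps Dnajc1, also in the table, with the same limit on strand.

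Mllt1 (chr17:56892608-56935509) encodes ENL, a YEATS-domain reader of acylated histones. It had 92.6, 80.4, 87.1 and 70.8 CPM in new AML and 70.1, 73.1, 54.3 and 66.3 CPM in aggressive AML. The groups met at new replicate 4, which was below aggressive replicate 2. The mean fell by 20.2%, from 82.7 ± 9.39 CPM to 66.0 ± 8.27 CPM (SD over 4 libraries each). The log2 fold change of -0.33 ± 0.11 (SE) had an edgeR adjusted p of 0.0461. This call lies near the threshold. It was lost on leaving out new replicates 1, 2 or 3 (adjusted p = 0.138, 0.0873 and 0.0878) or aggressive replicates 1, 3 or 4 (0.0612, 0.101 and 0.0747), each time with the same direction.

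Mllt3 (chr4:87769925-88033407) encodes AF9, the paralog of ENL and the partner in the fusion these cells carry. It had 82.3, 75.6, 51.7 and 80.02 CPM in new AML and 83.5, 91.2, 88.6 and 107 CPM in aggressive AML. All aggressive values were above all new values, by a narrow margin between aggressive replicate 1 and new replicate 1, and new replicate 3 was well below the rest. The means were 72.4 ± 14.1 and 92.4 ± 9.90 CPM (SD, n = 4), and the log2 fold change of 0.35 ± 0.13 (SE) did not pass the test (edgeR adjusted p = 0.0666). It passed with DESeq2 (adjusted p = 0.0460), with limma and array weights (0.0380) and with the GC trend removed (0.0311). It passed in 0 of the 8 settings that left out 1 library and changed nothing else, and without new replicate 3 the log2 fold change was 0.22 (adjusted p = 0.123).

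Aff1 (chr5:103692362-103855322) and Aff4 (chr11:53350640-53421830) encode the paralogous scaffolds on which the super elongation complex is built. Aff1 had 111, 118, 102 and 113 CPM in new AML and 128, 113, 134 and 119 CPM in aggressive AML. Its groups overlapped, with a log2 fold change of 0.15 (95% interval -0.02 to 0.33, edgeR adjusted p = 0.200). Aff4 had 57.5, 58.8, 49.6 and 59.0 CPM in new AML and 58.5, 60.7, 82.2 and 63.5 CPM in aggressive AML. Aggressive replicate 3 was the highest by a wide margin. The log2 fold change of Aff4 was 0.23 (95% interval from just below 0 to 0.47, edgeR adjusted p = 0.157), and 0.12 (adjusted p = 0.404) without that library.

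**Figure D2:**
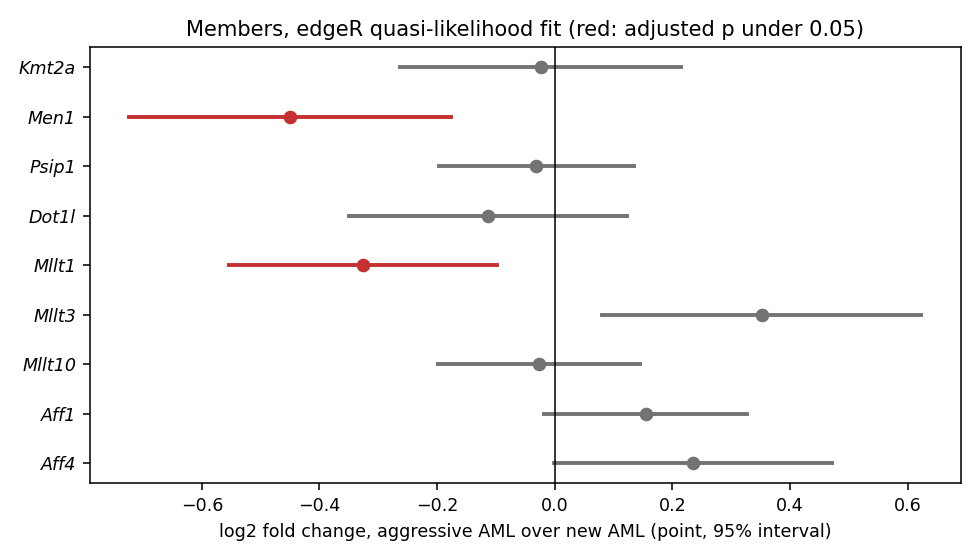
Log2 fold change of each member, aggressive AML over new AML (horizontal axis), as a point with its unadjusted 95% interval from the edgeR fit over 4 against 4 libraries; red marks an adjusted p under 0.05. Men1 (-0.45) and Mllt1 (-0.33) are the only red points, and Mllt3 lies at 0.35.

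The share of members called was near that of all genes. Of the 9, 2 were called lower and 0 higher, which is 22.2% called, against 18.4% of all 12494 tested genes in either direction, 10.2% lower and 8.15% higher. At an unadjusted p under 0.05 there were 3 members, and DESeq2 also called 3. The values of 2 members did not overlap between groups (Men1 and Mllt3), against 21.8% of all genes. The median log2 fold change was -0.03 over the members and 0.00 over all genes. The median absolute log2 fold change was 0.16 over the members and 0.19 over all genes.

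The balance of Mllt1 (ENL) and Mllt3 (AF9) counts was compared within each library, where it does not depend on scaling. It can still depend on a library's trend with GC content, as their longest transcripts had 59.5% and 41.4%. The shares were not corrected for that trend. The Mllt3 counts may also include reads of the MLL-AF9 transgene. Mllt1 held 52.9%, 51.5%, 62.7% and 46.9% of the Mllt1 and Mllt3 counts in new AML and 45.7%, 44.5%, 37.99% and 38.4% in aggressive AML. All 4 aggressive shares were below all 4 new shares. The mean was 53.5% ± 6.65 in the new libraries against 41.6% ± 4.01 in the aggressive ones (SD, n = 4), a difference of -11.9 percentage points. The exact two-sided permutation test gave p = 0.0286, the smallest that 70 choices of 4 libraries allow, and 0.0857 after adjustment over 3 gene pairs. After this adjustment even the smallest p cannot pass the threshold unless another pair also reaches it. The adjusted test therefore could not decide whether the Mllt1 share differed. Counting error was smaller than the difference in share, with 95% Wilson intervals of at most 2.86 points to either side, which cover counting error only.

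The shares of the other 2 pairs overlapped between the groups and did not pass the test. The difference in the Aff1 share, -1.15 points, was larger than the SD in new AML but smaller than that in aggressive AML. Aff1 held 66.4% ± 0.723 of the Aff1 and Aff4 counts in new AML and 65.2% ± 2.72 in aggressive AML (exact permutation p = 0.486, adjusted p = 0.6). Kmt2a held 65.4% ± 2.18 of the counts of Kmt2a and Kmt2b, the other menin-binding methyltransferase, in new AML and 66.5% ± 2.04 in aggressive AML (exact permutation p = 0.6, adjusted p = 0.6). Aggressive replicate 3 had the lowest Aff1 share, 62.0%, and new replicate 3 the lowest Kmt2a share, 62.4%.

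**Figure D3:**
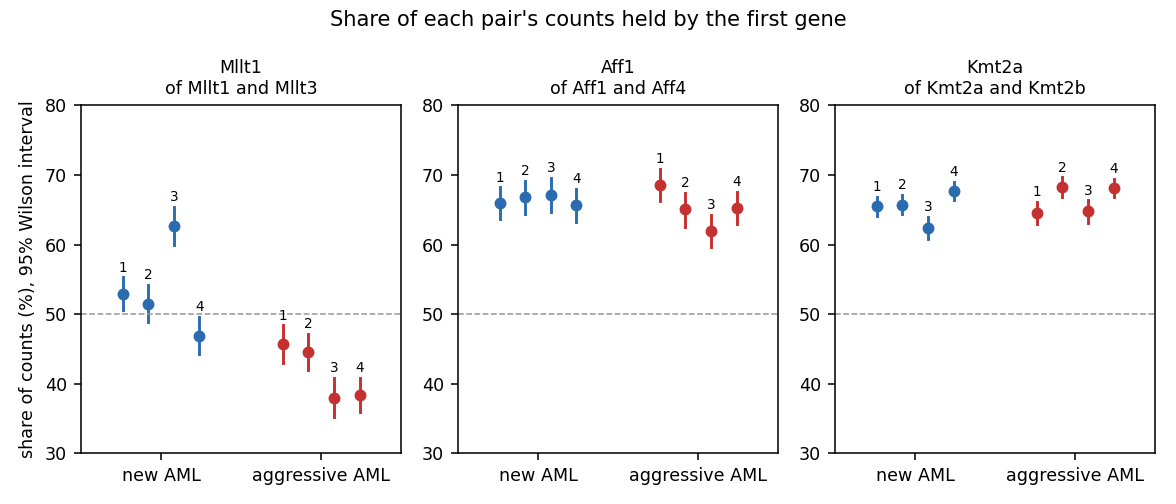
Share of each pair's counts held by the first gene in percent (vertical axes, 30 to 80%), by library in new AML (blue) and aggressive AML (red), with 95% Wilson intervals; the dashed line marks equal counts. The Mllt1 share is between 46.9% and 62.7% in new AML and between 37.99% and 45.7% in aggressive AML, while the groups overlap for the other pairs.

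Compared per length of exon, in CPM per kilobase, Men1 RNA had the highest mean of the 9 members in new AML and ranked 4 in aggressive AML. In new AML the levels were 23.4 ± 1.38 for Men1, 21.1 ± 2.40 for Mllt1, 19.6 ± 2.80 for Kmt2a, 18.9 ± 1.42 for Dot1l and 18.4 ± 0.8292 for Mllt10 (SD, n = 4), and each of these overlapped its neighbour in the order. Psip1 (15.8), Aff1 (11.7) and Mllt3 (6.03) were each separate from the gene above, and Aff4 (4.18) overlapped Mllt3. In aggressive AML the order was Kmt2a (19.2), Mllt10 (18.1), Dot1l (17.4), Men1 (17.1), Mllt1 (16.8), Psip1 (15.5) and Aff1 (13.1), with no gap between neighbours, then Mllt3 (7.70) and Aff4 (4.92), each separate from the gene above. On this per-length scale the Mllt3 level was below the Mllt1 level in every library. The length used is the union of all annotated exons, 12 kilobases for Mllt3 and 3.92 for Mllt1, and not that of the transcripts expressed. Before division by length, mean Mllt3 was above mean Mllt1 in aggressive AML (92.4 against 66.0 CPM). The limit on transgene reads for Kmt2a and Mllt3 applies here too. In new AML, 78.7% of tested genes with a known length were below Men1 on this scale, and 31.7% were below Aff4.

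The 8 libraries held 7805544 to 9697777 counts. Aggressive replicate 3 had the lowest total and the largest mean distance to the other libraries of its group, 0.393 on the log2(CPM + 1) scale against 0.288 to 0.332 in the other 7. Of the 5 members lowest in it, the longest transcript had a GC content of 57.0% for Men1, 59.5% for Mllt1 and 57.5% for Dot1l, but 42.5% for Psip1 and 46.5% for Mllt10. Aff1 and Aff4, the members highest in it, had 50.7% and 44.5%. Removing each library's trend with GC content and length, an alternative chosen after seeing the data, gave Men1 -0.41 (edgeR adjusted p = 0.0300), Mllt1 -0.28 (adjusted p = 0.0521) and Mllt3 0.38 (adjusted p = 0.0311). The call on Men1 held, while Mllt1 and Mllt3 changed sides of the threshold.

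**Figure D4:**
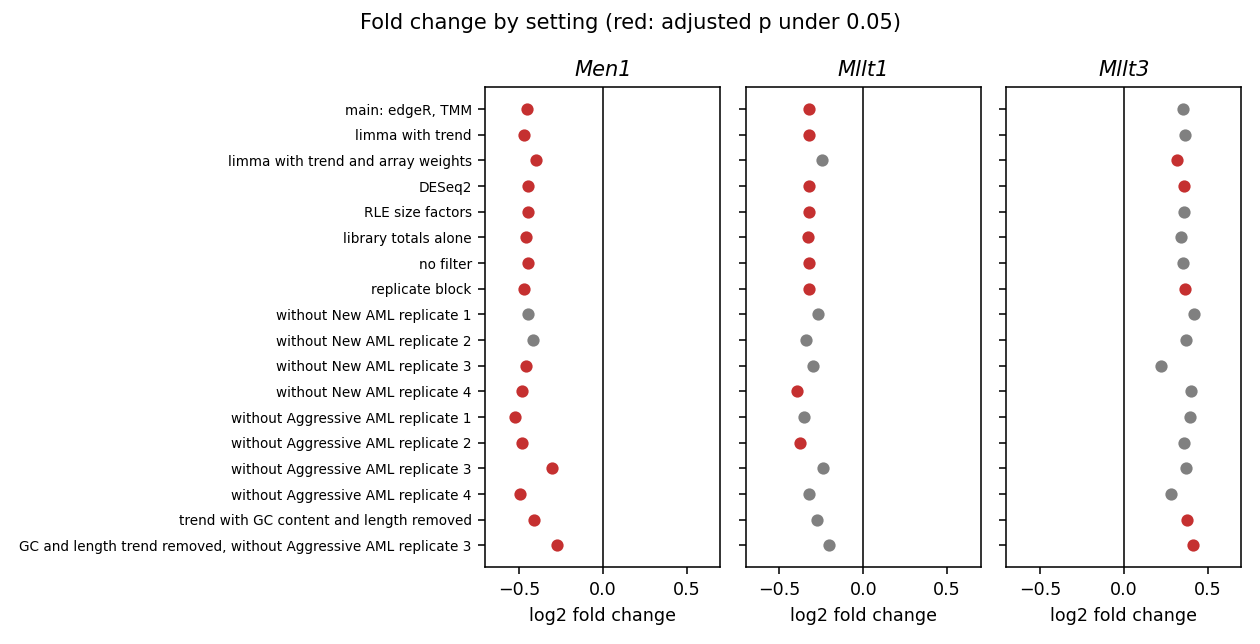
Log2 fold change, aggressive AML over new AML, of Men1, Mllt1 and Mllt3 (horizontal axes) under the main fit and 17 alternative settings (vertical axis); red marks an adjusted p under 0.05. Each gene kept its direction in all 17, and the alternatives called Men1 in 15, Mllt1 in 8 and Mllt3 in 5.

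Among the other subunits and paralogs of KMT2 complexes, Ash2l and Wdr5, of the core that all of these methyltransferases share, rose, while Kmt2d, Setd1b and Pagr1a fell. In all, 3 of 19 tested genes were called lower and 2 higher, 26.3% against 18.4% of all genes, with a median log2 fold change of -0.05 against 0.00 over all genes. Ash2l had 149, 113, 135 and 110 CPM in new AML and 237, 241, 225 and 232 CPM in aggressive AML. The groups were far apart, a rise of 84.1% with a log2 fold change of 0.88 ± 0.09 (SE, edgeR adjusted p = 1.51e-05), called in all 17 alternatives. Wdr5 rose by 20.2% (134 to 162 CPM, adjusted p = 0.0238). Kmt2d, a methyltransferase of enhancers, fell by 21.8% (355 to 277 CPM, adjusted p = 0.0391). Setd1b, another methyltransferase, fell by 23.7% (112 to 85.1 CPM, adjusted p = 0.0288), and Pagr1a, a subunit of the KMT2C and KMT2D complexes, fell by 29.5% (61.0 to 43.0 CPM, adjusted p = 0.0104). The calls on Wdr5, Kmt2d and Setd1b depended on single libraries, and in the settings that left out 1 library they were kept in 4, 2 and 3 of 8. Without new replicate 2 or 4, or aggressive replicate 1, none of the 3 passed, with adjusted p-values of 0.0556 to 0.131. Wdr5 also missed the threshold without aggressive replicate 2 (0.0600), Setd1b without new replicate 1 (0.0655) or aggressive replicate 3 (0.0649), and Kmt2d without new replicate 1 (0.0667) or aggressive replicates 2 (0.0715) or 3 (0.0636). With the GC and length trend removed, Setd1b (-0.31, adjusted p = 0.0507) and Kmt2d (-0.24, adjusted p = 0.0923) did not pass. The count of called genes in this list was 2 to 6 over these 8 settings.

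For the super elongation complex and P-TEFb, the kinase that releases paused polymerase, 3 of 13 tested genes rose and 1 fell, 30.8% against 18.4% of all genes, and the median log2 fold change was 0.09. Aff2 and Aff3, the other members of the AFF family, changed in opposite directions. Aff2 had 4.93, 6.42, 9.26 and 5.13 CPM in new AML and 16.4, 15.3, 19.0 and 19.6 CPM in aggressive AML. It rose with a log2 fold change of 1.45 ± 0.20 (SE, edgeR adjusted p = 0.000131), with no overlap. Aff3 fell by 33.1% (45.6 to 30.4 CPM, adjusted p = 0.00641). Eaf1, a partner of the ELL elongation factors, rose by 35.5% (105 to 142 CPM, adjusted p = 0.00191), and Hexim1, an inhibitor of P-TEFb, rose from 83.2 to 105 CPM (adjusted p = 0.0231). Aff2, Aff3 and Eaf1 were called in all 17 alternatives. Hexim1 did not pass without new replicate 4 (adjusted p = 0.0767) or without aggressive replicates 1 (0.0736) or 2 (0.0580). Ell3 and Eaf2 have no row in the table.

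**Figure D5:**
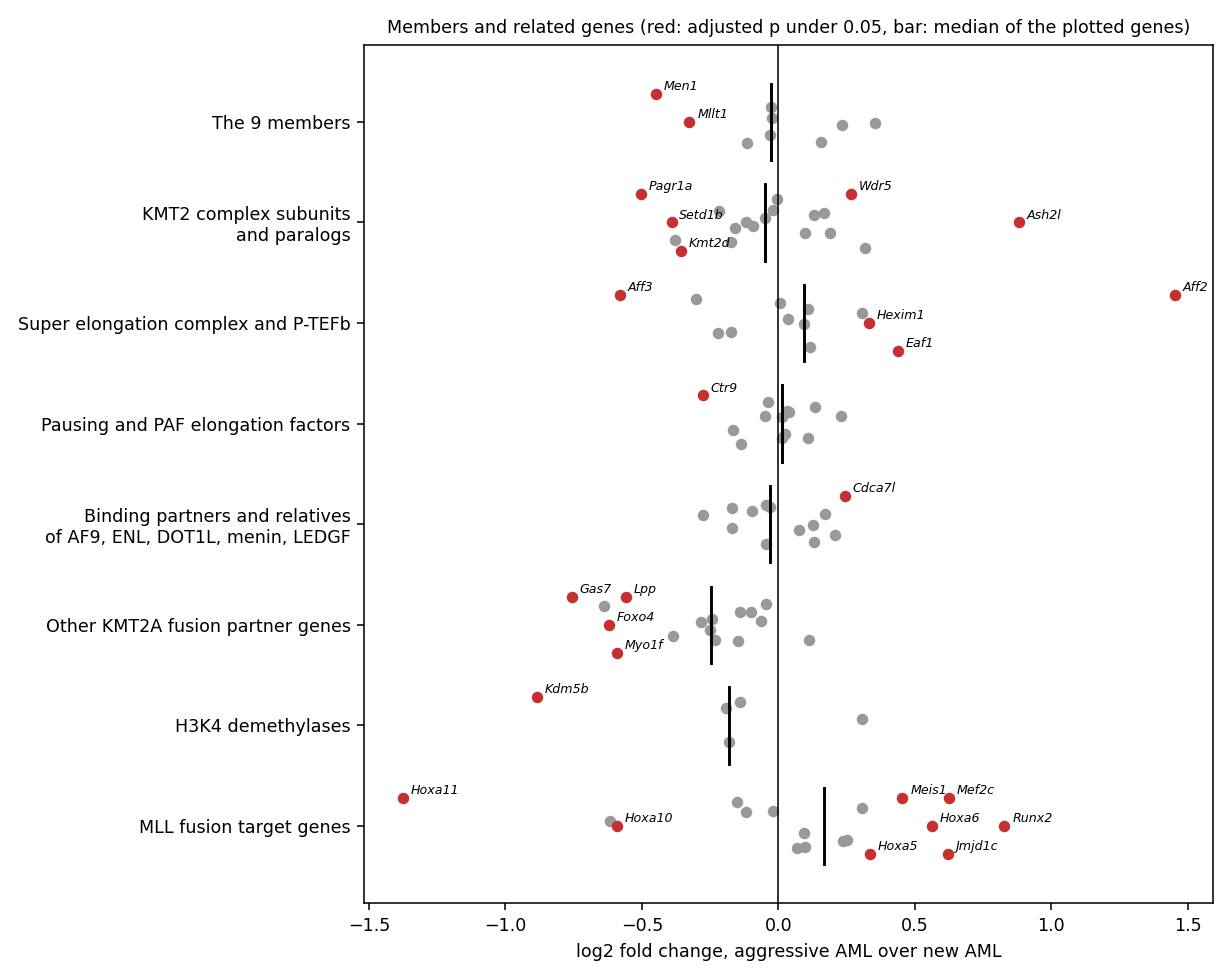
Log2 fold change, aggressive AML over new AML (horizontal axis), of the 9 members and the tested genes of 7 related lists (rows); red marks an adjusted p under 0.05 and the black bar the median of the plotted genes. Kdm5d, with 0 counts in aggressive AML, is left out. The KMT2 complex list holds called genes on both sides (Ash2l at 0.88, Pagr1a at -0.50).

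In the 2 remaining groups of cofactors 1 of 13 genes each was called, 7.69% against 18.4% of all genes. Among pausing and PAF elongation factors Ctr9, a subunit of the PAF complex, fell by 17.4% (197 to 163 CPM, adjusted p = 0.0324). Among binding partners and relatives of AF9, ENL, DOT1L, menin and LEDGF, Cdca7l, a binding partner of LEDGF, rose by 18.3% (94.2 to 112 CPM, adjusted p = 0.0426). Both calls were weak. Ctr9 did not pass without new replicates 1, 2 or 4 or aggressive replicates 1 or 3 (adjusted p = 0.0508 to 0.0816), and Cdca7l did not pass without any of these or aggressive replicate 2 (0.0730 to 0.118).

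Of 16 tested genes also found fused to KMT2A in leukemia, 4 fell and 0 rose. That is 25% called against 18.4% of all genes in either direction and 10.2% called lower, and 15 of the 16 log2 fold changes were below 0, with a median of -0.25. Myo1f, an unconventional myosin, fell by 33.6% (377 to 250 CPM, edgeR adjusted p = 6.10e-05) and Foxo4, a forkhead factor, fell by 34.9% (62.3 to 40.5 CPM, adjusted p = 0.000357). Gas7 fell by 40.8% (51.8 to 30.6 CPM, adjusted p = 0.00608) and Lpp fell by 32.1% (16.9 to 11.5 CPM, adjusted p = 0.0299). Lpp did not pass without new replicates 2, 3 or 4 or aggressive replicates 1 or 2 (adjusted p = 0.0502 to 0.0971). Neutrophil markers also fell, as 8 of 9 were called lower and their summed level went from 304 to 456 CPM over the new libraries and from 145 to 196 CPM over the aggressive ones. Their part in these differences, and in those of the members, was not tested.

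Of 6 demethylases that remove methyl groups from lysine 4 of histone H3, Kdm5b and Kdm5d were called lower and 0 higher, 33.3% against 18.4% of all genes, with a median log2 fold change of -0.19. Kdm5d, a Y-linked gene, had 503 to 641 counts in the 4 new AML libraries and 0 in each aggressive AML library. The share called in this short list therefore cannot be read apart from the Y-linked genes. Against a floor of 3 counts per library Kdm5d was at least 169-fold lower. The other Y-linked genes Ddx3y, Uty and Eif2s3y, chosen after their values were seen, had 237 to 882 counts in new AML and 0 in aggressive AML. Loss of the Y chromosome, cells of another donor and a separate derivation of the aggressive cells cannot be told apart with these files, and this holds for every aggressive-over-new value given here. Xist, also chosen after its values were seen, had 18 to 46 counts in new AML and 2 to 6 in aggressive AML. Kdm5b, at low levels, had means of 7.71 CPM in the new and 4.16 CPM in the aggressive libraries (edgeR adjusted p = 0.0239), and it lies below the level set for describing a gene by the naming rule, so it was chosen after its values were seen. With 1 library left out, this list had 1 to 3 called genes.

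Of 18 tested genes known as targets of MLL fusions, 6 were called higher and 2 lower, 44.4% against 18.4% of all genes, with a median log2 fold change of 0.17. Runx2 rose by 77.5% (98.1 to 174 CPM, edgeR adjusted p = 0.00118), Mef2c, a myeloid transcription factor, by 54.2% (318 to 490 CPM, adjusted p = 0.00109) and Jmjd1c, a histone demethylase-related protein, by 53.6% (340 to 523 CPM, adjusted p = 0.00289). Aggressive replicate 3 was the highest library for all 3, and without it the log2 fold changes were 0.61, 0.48 and 0.45, all still called. Within the HOXA cluster Hoxa6 rose by 47.7% (22.8 to 33.7 CPM, adjusted p = 0.00140) and Hoxa5 by 26.1% (81.9 to 103 CPM, adjusted p = 0.0363), whereas Hoxa10 fell by 33.6% (185 to 122 CPM, adjusted p = 7.85e-05) and Hoxa11 fell by 61.5% (27.7 to 10.7 CPM, adjusted p = 5.54e-05). Hoxa9 had 301 and 322 CPM (log2 fold change 0.10, adjusted p = 0.384) and Hoxa7 had 65.9 and 65.0 CPM (-0.02, adjusted p = 0.932). Outside the cluster, Meis1 rose by 37% (100 to 138 CPM, edgeR adjusted p = 0.0117), with aggressive replicate 3 its highest library at 178 CPM. Hoxa5, Hoxa7, Hoxa9 and Meis1 lie outside the naming rule and were chosen after their values were seen. Runx2, Mef2c, Jmjd1c, Hoxa6, Hoxa10 and Hoxa11 were called in all 17 alternatives. Zfp521 and Mecom have no row in the table.

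Genes listed as markers of myeloid leukemia cells were expressed in both groups. Without a group of normal cells, their levels do not set leukemia apart from normal myeloid cells. All 12 of these markers were tested, with Mpo at 2399 ± 133 CPM in the new and 2092 ± 554 CPM in the aggressive libraries (SD, n = 4), and their summed level was 7546 to 8167 CPM and 7063 to 9692 CPM. Of them 4 rose (Kit, Elane, Ctsg and Cd33) and 3 fell (Csf1r, Itgam and Spi1). Csf1r fell by 69.2% (166 to 51.2 CPM, edgeR adjusted p = 3.76e-07) and Itgam by 34.4% (495 to 324 CPM, adjusted p = 0.00122). Markers of T, B, NK, erythroid and megakaryocyte cells were low, and some differed between the groups. Those of neutrophils, given above, and of macrophages were higher. Summed levels in the new and in the aggressive libraries were 7.801 to 9.54 and 6.35 to 21.4 CPM for T cells, 40.2 to 45.4 and 30.6 to 33.97 CPM for B cells, and 15.0 to 27.8 and 25.8 to 33.0 CPM for NK cells. They were 28.4 to 102 and 10.6 to 54.2 CPM for erythroid cells and 5.46 to 9.92 and 3.85 to 10.4 CPM for megakaryocytes. Of 7 tested erythroid markers 2 were called lower (Hba-a1 and Slc4a1) and all 7 had log2 fold changes below 0, with a median of -1.02. Cd22, of B cells, was at 3.81 and 0.117 CPM (adjusted p = 1.85e-05). Bcl11b, of T cells, and Nkg7, of NK cells, were called higher (5.32 to 12.2 CPM and 14.9 to 24.1 CPM), but their groups overlapped. For Bcl11b, aggressive replicate 3, at 2.46 CPM, was below every new library, while the other aggressive libraries were above them all. For Nkg7, aggressive replicates 3 and 4 (19.96 and 21.96 CPM) were below new replicate 4 (22.18 CPM). Many lymphoid and megakaryocyte markers have no row in the table, among them Cd3e, Cd3d, Cd3g, Ms4a1, Pax5 and Ncr1. The sums cover 2 of 8 T cell, 4 of 7 B cell, 2 of 6 NK cell and 2 of 6 megakaryocyte markers. Cd79b, with means of 36.3 and 32.1 CPM in new and aggressive AML, made up most of the B cell sum. Macrophage markers, of which 4 of 7 have a row, summed to 207 to 250 CPM in new AML and 156 to 207 CPM in aggressive AML. Of 3 tested 1 was called lower, Adgre1, which fell by 43.6% (83.1 to 46.9 CPM, edgeR adjusted p = 0.00245).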

How the data were processed

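RNA from 8 samples of GFP+ bone marrow leukemia cells was sequenced by the authors as paired-end poly(A) libraries. Per the study's methods, reads were aligned to mm10 with HISAT2 and counted per gene with Rsubread, and genes under 1 CPM were removed. The deposited table, named as CPM, holds whole-number counts that sum to a different total in each library. The gene annotation and strand setting are not given in the sources used here. No row lacked a name.

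The 12494 genes that reached 1 CPM in 4 or more libraries were tested with edgeR 4.0.16 (R 4.3.3), TMM factors and group as the only term. Standard errors are the log2 fold change over the square root of F. limma 3.58.1, as in the study's own test but on log2(CPM + 1) with a pseudocount of 1, and DESeq2 1.42.0 were alternatives. Other settings were RLE factors, library totals, no filter, array weights, a replicate block, GC and length correction, and leaving out each library with the same genes tested. Shares were tested exactly with scipy 1.17.1. From each list, up to 4 genes per direction were named, those with the largest change among genes past the threshold of 0.05 whose higher mean reached 10 CPM. The members and lists were chosen with earlier results of these data known. Gene positions come from RefSeq (GRCm38.p6), to which 97.4% of names matched. Lengths and GC content come from GENCODE. The edgeR fit was tested on simulated data. Replicate pairs differed beyond sampling noise, with a chi-square per degree of freedom of 4.12 to 11.2.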

Additional observations from a re-analysis of the deposited data

Results flagged for a closer look

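In 69 groups of 4 libraries, Dixon's ratio flagged 7 in which 1 library lay far from the other 3. Chance flags about 1 group in 20, or 3.45 here. Aggressive replicate 3 accounted for 5: Psip1 at 71.9 CPM (others 80.3 to 81.5), Ctr9 at 137 CPM (169 to 173), Eaf1 at 157 CPM (135 to 138), Runx2 at 248 CPM (144 to 156) and Mef2c at 637 CPM (430 to 454). New replicate 3 was low for Aff4, at 49.6 CPM (57.5 to 59.0), and new replicate 4 for Hexim1, at 74.2 CPM (85.2 to 87.0). The cause was not tested.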

How the results depend on the processing

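Of 183 summary values under alternatives, 153 stayed within their limits. Those limits were wide, as 1534 called genes without new replicate 2, against 2296 in the main fit, counted as within them. Leaving out 1 library moved the count of called members to 0 to 2, that of all genes to 1534 to 2381, and those of called list genes to 2 to 6 (KMT2 complexes), 3 to 5 (super elongation complex), 0 to 1 (pausing and PAF), 0 to 2 (binding partners), 3 to 6 (fusion partners), 1 to 3 (demethylases) and 7 to 10 (targets). The Mllt1 share then differed by -14.1 to -8.83 points, the Aff1 share by -2.28 to -0.06 and the Kmt2a share by 0.14 to 1.90. limma with array weights called 2 binding partners and 7 fusion partners. GC and length correction without aggressive replicate 3 called 0 in both the pausing and the binding partner lists. Signs turned for 4 members near 0 and not called. Kmt2a was 0.042 with GC and length correction and 0.094 with that and without aggressive replicate 3. On leaving out 1 library the log2 fold changes ran from -0.121 to 0.036 for Kmt2a, -0.054 to 0.011 for Psip1, -0.172 to 0.004 for Dot1l and -0.078 to 0.021 for Mllt10. With GC and length correction and without aggressive replicate 3, the last 3 were 0.022, 0.072 and 0.014. With array weights Psip1 was 0.011 and Mllt10 0.024. The cause was not tested.

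The labels do not say whether replicate numbers pair the samples. For replicates 1 to 4 the correlation of same-numbered deviations was 0.10, -0.04, -0.07 and 0.20. With the replicate block, 2367 genes and 3 members (also Mllt3, adjusted p = 0.0378) were called, and the shares differed by -11.9, -1.15 and 1.11 points, where the exact sign-flip test over 4 pairs cannot go below p = 0.125. New replicates 1 and 4 correlated best with the aggressive library of their own number, and new replicates 2 and 3 did not. A shared preparation by number was not tested. Members had 347 or more counts in each library. With 4 libraries per group and 1 derivation of the aggressive cells, a batch that follows the groups cannot be told apart from them.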
